A study of Mus musculus with 14 samples.

Results

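In regulatory T cells of control chimeras, 977 autosomal regions carried H3K27ac in each of 3 libraries. None of 3 libraries from regulatory T cells labelled as Slc31a1-deleted had a peak there. These regions were found by merging the 6 H3K27ac peak lists of chromosomes 1 to 19 wherever peaks shared at least 1 bp. A merged region was kept where a peak of every control list and of no knockout list lay in it. The rule kept 977 of 36809 merged regions, 2.65%. The opposite rule, a peak in every knockout list and in no control list, kept 299 regions, 0.812%. This imbalance depends on list length: with each list cut to the length of the shortest, 477 regions were control-only and 449 knockout-only. These control-only regions were thus chosen by H3K27ac peaks in all 6 libraries, so every H3K27ac value below describes them, and no test is given for it.

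Cells were FACS-sorted regulatory T cells of mice labelled Foxp3YFP-Slc31a1△;wt, called knockouts here, or Foxp3YFPcre;wt, called controls, and 140000 cells entered each sample. Both allele names carry the Foxp3 YFP reporter, and the Cre that deletes Slc31a1 is driven from Foxp3, so the deletion is limited to cells that express Foxp3. H3K27ac was profiled in knockout chimeras 2, 3 and 4 and in control chimeras 2, 3 and 4, here replicates 1 to 3, and H3K27me3 in knockout chimeras 1 and 2 and control chimeras 1 and 2. The labels call the animals chimeras and give neither age nor sex. They do not say that each sample came from its own animal, and p-values cover only the variation among the samples as labelled. The 4 IgG samples, 1 knockout and 3 control, were not analysed here. The deletion itself and the marker genes of regulatory T cells were not checked, since no gene annotation of mm39 was used.

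H3K27ac is placed on histone H3 by the acetyltransferases p300 and CBP and marks active promoters and enhancers. It is removed by histone deacetylases. H3K27me3 is written on the same lysine by the Polycomb complex PRC2 and marks repressed chromatin, so a single histone tail cannot carry both. Regulatory T cells restrain other immune cells and depend on the transcription factor Foxp3. Slc31a1 encodes CTR1, the copper importer of the cell surface, and copper is a cofactor of cytochrome c oxidase and of the superoxide dismutase SOD1. The comparison asks where chromatin that is acetylated in control cells has no acetylation peak in cells labelled as lacking Slc31a1.

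The 6 H3K27ac lists held 27651, 23633 and 20900 autosomal peaks in knockouts 1 to 3 and 31337, 27410 and 29132 in controls 1 to 3. All began at a −log10 p of about 5. Fold and −log10 p of a peak together fix the number of fragments stacked at its summit and the local background, if the caller used a Poisson model. Read back in this way, the summit height was a whole number, within 0.02, for 100% of the peaks that could be solved, between 98.5% and 99.8% of each list. At the lowest background of a list, a peak needed 12, 13 and 11 fragments in knockouts 1 to 3 and 13, 11 and 11 in controls 1 to 3. The depth of the library used as background went with the genotype: 20.7, 20.6 and 20.6 fragments per kb behind the knockout lists, against 16.1, 13.1 and 13.1 behind the control lists. It was inferred from the step whose whole multiples best matched the local backgrounds, with the narrowest peak taken as fragment length. The best match held for between 62.7% and 67.7% of the backgrounds used, so it is less firm than the summit heights. At none of the 977 regions can the choice of background library be told apart from genotype. The depth of H3K27ac fragments that entered each call was read from the lowest background and the same fragment length. It was 11.0, 10.9 and 9.10 fragments per kb in the knockouts and 12.4, 8.49 and 9.02 in the controls.

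Control-only regions were short and low. Their median width was 901 bp, with an interquartile range of 666 to 1288 bp, against 2379 bp for the 12813 regions with a peak in all 6 lists. The narrowest spanned 321 bp and the widest 4403 bp, and 8 of the 977 reached 3 kb. Together they covered 1026 kb, or 1.65% of the bases of all merged regions. In controls 1 to 3 they made up 1.91%, 1.62% and 1.49% of the bases under H3K27ac peaks. Most were a single peak: 870 of the 977 held just 1 peak in each control list.

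Summits at control-only regions had a median of 32 fragments in control 1, 21 in control 2 and 21 in control 3. At the regions of all 6 lists the same medians were 103, 64 and 73. Control-only summits thus stood below shared ones in each control library. Their local background was also lower. It was 2.14, 1.55 and 1.59 times the lowest background of the list in controls 1 to 3, against 6.16, 4.03 and 4.24 times at shared regions. The median fold enrichment was 4.77 ± 0.349 at control-only and 6.18 ± 0.972 at shared regions (SD over the 3 control lists).

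**Figure D1:**
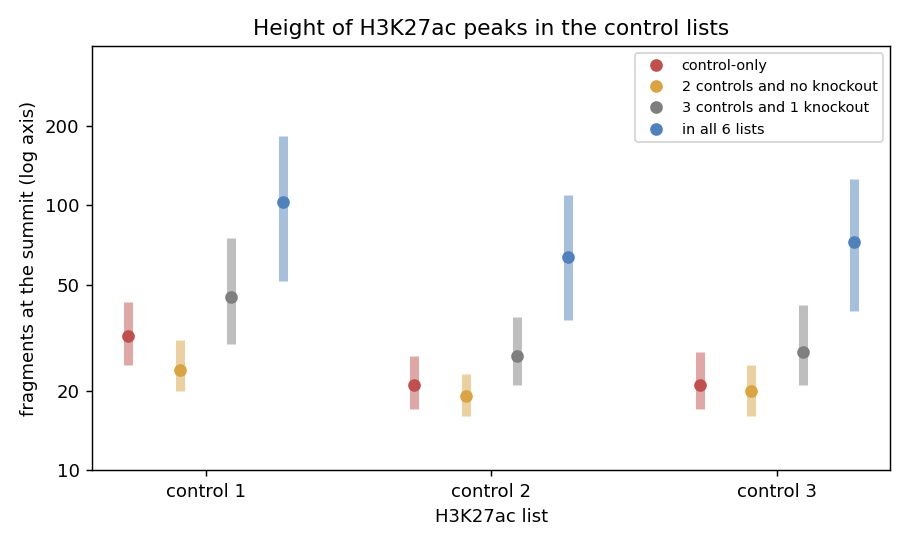
Fragments at the summit (log axis) in each control H3K27ac list, for control-only regions, for the classes just outside the rule and for regions in all 6 lists; points are medians and bars the interquartile range over regions. Control-only medians are 32, 21 and 21, against 103, 64 and 73 for regions in all 6 lists.

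Ranked by −log10 p within their own list, with 100 as the strongest, control-only regions had a median percentile of 39.7, 32.7 and 29.5 in controls 1 to 3. Their mean was 34.0 ± 5.21, against 74.6 ± 1.16 for shared regions (SD, n = 3 lists). The mirrored set, knockout-only regions, had 22.6, 34.4 and 30.1 in knockouts 1 to 3. Kept on the percentile scale of the full lists, the control-only mean was 51.1 when lists were cut to equal length. It was 50.45 with only peaks whose −log10 p was at least 5 above the lowest. Both settings drop the weakest peaks by construction, and ranks within the shortened lists were not computed. Of the 977, 540 lay under the middle of all 3 control lists and 55 above the middle of all 3. None reached the top 10% of any control list, and 317 fell in the lowest 10% of at least 1. The lists ranked the same regions only loosely: Spearman correlations of −log10 p across the 977 regions were 0.33 between controls 1 and 2, 0.267 between 1 and 3, and 0.425 between 2 and 3. These correlations are across regions, which are not independent replicates.

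The control lists placed the peaks at much the same spot. The summits of the 3 lists lay within a median of 194 bp of each other, and 823 of the 977 regions had them within 500 bp. In 930 regions some bases were under a peak in all 3 controls, and that common core made up a median of 41.1% of the region. In the other regions the 3 peaks formed a chain, each sharing bases with a neighbour but not all 3 at once.

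Regions just outside the rule stood close in height to those inside. A peak in all 3 controls and in a single knockout was found at 1287 regions, and 980 of these had it in knockout 1, 231 in knockout 2 and 76 in knockout 3. This knockout peak was weak, with a median percentile of 30.3 in knockout 1, 18.3 in knockout 2 and 16.2 in knockout 3. In the controls these regions had median summits of 45, 27 and 28 fragments, above the control-only regions. Another 1682 regions had a peak in exactly 2 controls and none in the knockouts, with median summits of 24, 19 and 20 fragments, below them. Inside the rule, 125 of the 977 had a −log10 p under 6 in their weakest control list, close to the threshold of 5.

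The count of 977 therefore moved with the lists. Without knockout 1 the rule kept 1970 regions, and without controls 1, 2 or 3 it kept 1642, 1567 and 1560; asking for fewer lists by itself eases the rule. With lists cut to the shortest, 283 of the 977 were still among the 477 control-only regions. With only peaks whose −log10 p was at least 5 above the lowest in the lists, 638 regions were control-only and 184 knockout-only, and 288 of the 977 were still among the control-only ones. Asking that peaks cover at least 50% of the merged region in each control list kept 496.

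**Figure D2:**
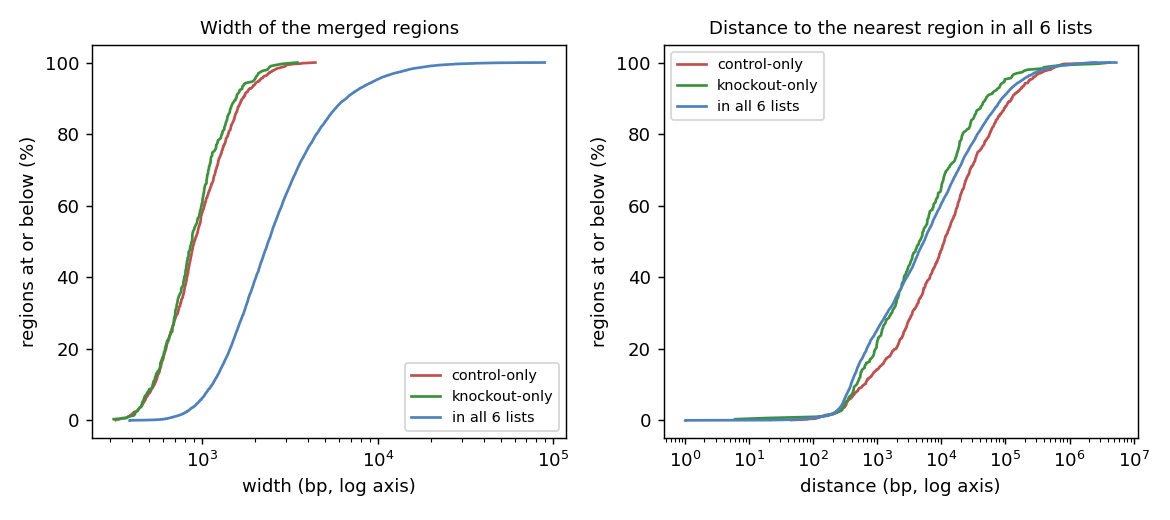
Share of regions (%) at or below a given width (left, bp, log axis) and a given distance to the nearest region present in all 6 H3K27ac lists (right, bp, log axis), for control-only, knockout-only and shared regions. Control-only regions have a median width of 901 bp, against 2379 bp for shared ones, and a median distance of 11117 bp, against 4555 bp for knockout-only ones.

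Control-only regions lay apart from shared acetylation more often than the knockout-only ones did. Their median distance to the nearest region of all 6 lists was 11117 bp, with an interquartile range of 2658 to 37163 bp. It was 4555 bp for knockout-only regions, and 5320 bp between shared regions themselves. The classes just outside the rule lay on either side. The median was 16097 bp for regions in 3 controls and 1 knockout and 7326.5 bp for those in 2 controls and no knockout. A shared region lay within 1 kb of 139 control-only regions (14.2%), within 10 kb of 465 (47.6%) and within 50 kb of 765 (78.3%). For knockout-only regions these shares were 22.1%, 64.9% and 90.0%. The remaining end of the scale held 120 control-only regions (12.3%) with no shared region within 100 kb, against 4.68% of knockout-only regions. This share was 17.7% with 3 controls and 1 knockout and 9.22% with 2 controls and no knockout.

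The distant ones were somewhat larger. The 120 control-only regions beyond 100 kb had a median width of 1032 bp and a median of 39, 23 and 22 fragments at the summit in controls 1 to 3. The 139 within 1 kb of a shared region had 836 bp and 28, 21 and 21 fragments. The difference was clearest in control 1, and in controls 2 and 3 it came to 2 fragments and 1.

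Absence of a peak in the knockouts at these regions did not mean absence nearby. A peak of at least 1 knockout list lay within 1 kb of 209 control-only regions (21.4%), within 5 kb of 536 (54.9%) and within 10 kb of 661 (67.7%). All 3 knockout lists had a peak within 10 kb of 478 regions. The median distance to the nearest knockout peak was 4715 bp for knockout 1, 6774 bp for knockout 2 and 9279 bp for knockout 3, so knockout 1 came closest. No knockout list had a peak within 50 kb of 102 regions, and 77 had neither a shared region, a knockout peak nor another control-only region in that distance. Within 10 kb, 157 regions had no other peak in any of the 6 lists.

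The flanks of control-only regions were measured in the same lists that chose the regions, and they hold regions that missed the rule by a single list, so their values are a description of the choice. In the 10 kb on either side, all control-only regions left out, peaks covered 1655, 1755 and 1329 kb in knockouts 1 to 3 and 2446, 2196 and 2142 kb in controls 1 to 3. As a share of the bases under peaks of each list this was 4.01%, 3.79% and 3.60% in the knockouts and 5.76%, 5.29% and 5.08% in the controls, with no overlap between genotypes. Counted by region, with neighbouring control-only regions left in, each knockout had fewer flanking bases than each control at 383 of the 977 (39.2%). Over all 36809 merged regions this was so at 11.8%, and at regions of all 6 lists at 8.41%. The opposite order was found at 10 of the 977 (1.02%), against 7.26% of all merged regions. At regions with a peak in 2 controls and no knockout each knockout was below each control in 27.2% of flanks. Nothing further is read from these shares.

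By chromosome, control-only regions made up between 1.52% and 4.25% of the merged regions. The highest share was on chromosome 18, with 42 of 988, followed by chromosome 12 with 60 of 1692 (3.55%), chromosome 8 with 66 of 1888 (3.496%) and chromosome 9 with 73 of 2094 (3.49%). The lowest shares were on chromosome 19, with 16 of 1050, and chromosome 10, with 42 of 2123 (1.98%). Chromosome 10 at the same time held the most knockout-only regions, 32 of 299.

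**Figure D3:**
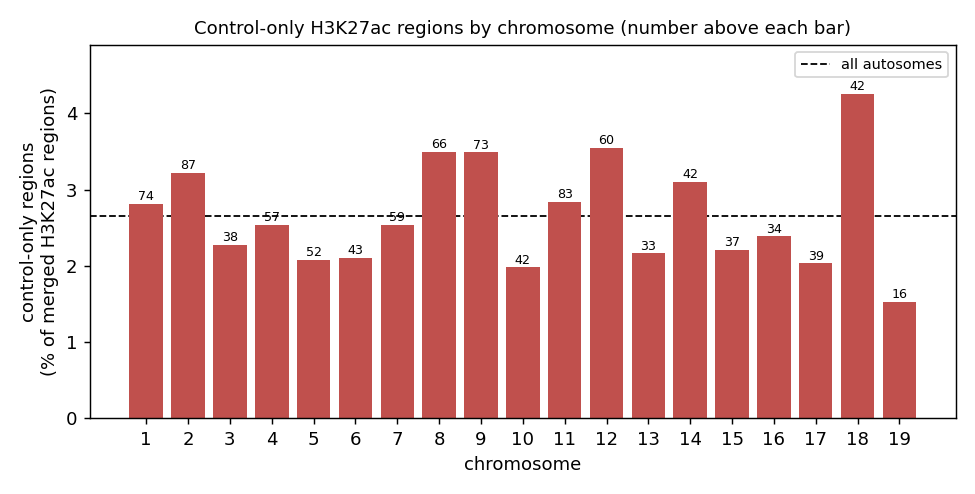
Control-only H3K27ac regions as a percentage of all merged H3K27ac regions on each autosome, with their number above each bar; the dashed line is the share over all autosomes, 2.65%. Chromosome 18 has the highest share, 4.25%, and chromosome 19 the lowest, 1.52%.

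Many control-only regions came in groups. Another control-only region lay within 50 kb of 381 of the 977 (39.0%), against 20.1% of the 299 knockout-only regions, a smaller set that is less dense by number alone. Grouping was not particular to them. A region of the same class lay that close at 42.9% of the 1682 regions in 2 controls and no knockout. It did so at 28.5% of the 1287 in 3 controls and 1 knockout, and at 83.8% of the 12813 shared ones. Chained at gaps of up to 50 kb, the 977 regions formed 736 loci, of which 596 held a single region, 89 a pair and 13 at least 5 regions. Grouped regions were a little wider than single ones, with a median of 979 bp in groups and 863 bp alone. Their ranks were similar, with a median percentile of 33.3 in groups and 32.4 alone.

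The largest number of control-only regions in a locus was 8, found at 2 loci. The denser of them, chr12:17429806-17522289, spanned 92.5 kb. Over this stretch H3K27ac peaks covered 2605, 0 and 291 bp in knockouts 1 to 3 and 21204, 13958 and 14125 bp in controls 1 to 3, a knockout mean of 965 ± 1427 bp and a control mean of 16429 ± 4136 bp (SD, n = 3 each). No region of all 6 lists lay inside it, and every knockout was below every control. The bases of control-only regions are counted here, and by the rule the knockouts have no peak in them. The choice of regions thus favours this order, here and in the groups below. Its first region, chr12:17429806-17432047, was also among the strongest of the 977, with 68, 43 and 32 fragments at the summit in controls 1 to 3.

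The other group of 8 lay at chr2:6567128-6682504, spread over 115 kb with 43 merged regions, 2 of them in all 6 lists. Peaks covered 10173, 12735 and 6007 bp in knockouts 1 to 3 and 31010, 24871 and 20357 bp in controls 1 to 3, a knockout mean of 9638 ± 3396 bp and a control mean of 25413 ± 5347 bp (SD, n = 3 each). Here the knockouts kept part of the acetylation, and again every knockout was below every control. Next came 2 groups of 7. The group with more bases in control-only regions, chr8:129237853-129274564, spanned 36.7 kb. It had 3174, 1529 and 427 bp under peaks in knockouts 1 to 3 and 17333, 13268 and 12178 bp in controls 1 to 3, a knockout mean of 1710 ± 1382 bp and a control mean of 14260 ± 2717 bp (SD, n = 3 each), with 1 region of all 6 lists inside. The other group of 7, chr9:114248917-114307025, had 1467, 379 and 270 bp in knockouts 1 to 3 and 16998, 11082 and 13061 bp in controls 1 to 3 over 58.1 kb. Not every large group had this order. At chr11:88315990-88458165, a group of 5, peaks covered 28906, 47127 and 38424 bp in knockouts 1 to 3. In controls 1 to 3 they covered 36991, 31676 and 30102 bp, so the genotypes overlapped.

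**Figure D4:**
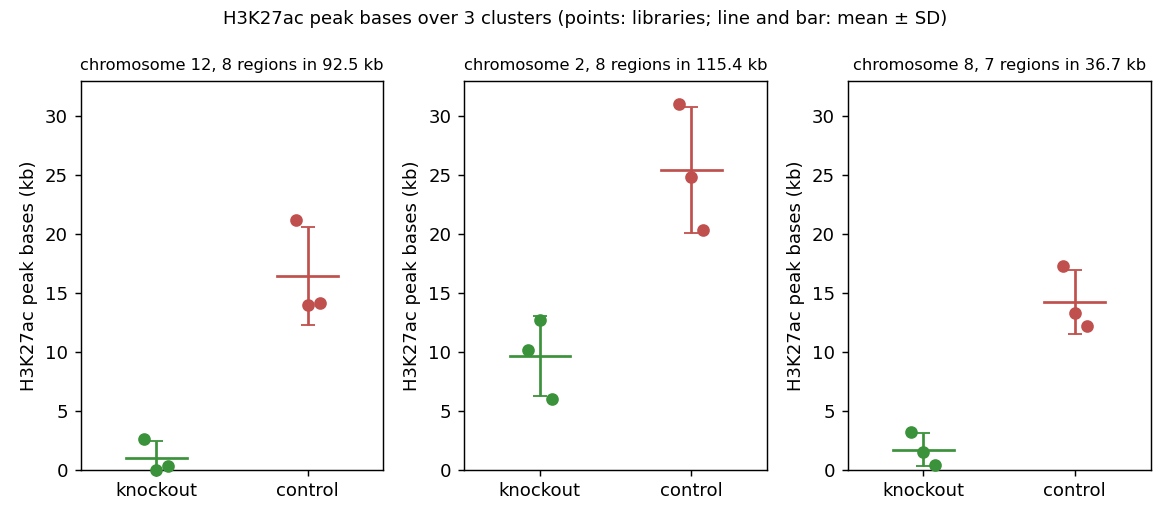
Bases under H3K27ac peaks (kb) over 3 groups of control-only regions, both groups of 8 and the group of 7 with more bases in such regions, for knockouts (left, green) and controls (right, red); points are libraries, the line the mean and the bar the SD (n = 3 each). The knockout points lie below the control points in each panel, with the chromosome 2 group keeping the most in the knockouts, 9638 bp on average. Bases of control-only regions are counted, so the choice of regions favours this order.

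The single strongest control-only region by mean −log10 p was chr9:61726337-61729211. It had 74, 48 and 47 fragments at the summit over a local background of 5.02, 3.19 and 3.44 fragments in controls 1 to 3. That put it at the 85.7th, 79.5th and 74.96th percentile of the 3 lists, and its summits lay within 230 bp of each other. Acetylation on either side was mostly missing from the knockouts too: within 10 kb, outside the region, peaks covered 718, 0 and 0 bp in knockouts 1 to 3 and 6315, 5607 and 5419 bp in controls 1 to 3. The nearest region of all 6 lists was 62335 bp away.

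Next came chr2:69934325-69936672, with 78, 38 and 59 fragments at the summit in controls 1 to 3. Within 10 kb of it, peaks covered 1152, 915 and 868 bp in knockouts 1 to 3 and 5510, 4466 and 5742 bp in controls 1 to 3. A shared region stood 5519 bp away, so here acetylation present in both genotypes stood close by. At chr12:104201439-104204669 the summits had 65, 43 and 48 fragments in controls 1 to 3. This region stood alone: no knockout list had a peak within 177590 bp, and the nearest shared region was 510756 bp away. On the same chromosome, 172577 bp from it, chr12:104027408-104028861 was number 10 by strength, with 89, 37 and 51 fragments and its nearest shared region 616108 bp away.

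The other 6 of the 10 strongest were spread over 5 chromosomes. At chr8:129254344-129256669, inside the chromosome 8 group, the summits had 60, 36 and 38 fragments in controls 1 to 3. At chr12:99617214-99619427 they had 34, 32 and 56, with control 3 high. Around this region acetylation was not lower in the knockouts: within 10 kb, peaks covered 1424, 3601 and 3401 bp in knockouts 1 to 3 and 1694, 1794 and 1491 bp in controls 1 to 3, so the genotypes overlapped. At chr13:31096828-31098559 the summits had 70, 33 and 35 fragments in controls 1 to 3, with control 1 high. At chr11:107987465-107990415 they had 52, 32 and 32 fragments, and the summits of the 3 lists lay within 4 bp. At chr9:15439867-15443871 they had 84, 44 and 46 fragments, and the first region of the chromosome 12 group, described above, completes the 10.

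The widest control-only region was chr7:25479185-25483587, at 4403 bp, with 85, 57 and 62 fragments at the summit in controls 1 to 3 over a high local background of 17.7, 12.3 and 13.1 fragments. Its summits lay within 1 bp of each other in the 3 lists. The other wide ones were chr9:15439867-15443871, at 4005 bp, chr2:33060962-33064645, at 3684 bp, chr18:80686795-80690429, at 3635 bp, and chr7:105788015-105791294, at 3280 bp. The chromosome 18 region was the weakest of these 5, with 25, 20 and 19 fragments at the summit in controls 1 to 3 and a mean percentile of 35.1. The mean percentile of the other 4 lay between 56.5 and 72.4, above the upper quartile of 43.2 over the 977.

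H3K27me3, a mark that the rule did not use, was far from most control-only regions in both genotypes. The 2 knockout lists had 36053 and 56634 autosomal peaks over 30.4 and 62.0 Mb, and the 2 control lists 7507 and 43253 over 4.89 and 40.1 Mb. The list of control 1 stands apart: its −log10 p runs from 2.02 to 7.21, below the lowest value of 9.005 in the other 3 lists. What this list adds to any difference between genotypes cannot be told apart from how it was called. The median distance from a control-only region to the nearest H3K27me3 peak was 96978 and 72527 bp in knockouts 1 and 2 and 212700 and 80930 bp in controls 1 and 2. At regions of all 6 lists these distances were 108755 and 78053 bp in the knockouts and 195508 and 83880 bp in the controls.

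Peaks of H3K27me3 within 10 kb of control-only regions held 0.162% and 0.205% of all H3K27me3 bases of knockouts 1 and 2, against 0.0759% and 0.102% for controls 1 and 2. The knockout mean was 0.184 ± 0.0304% and the control mean 0.0887 ± 0.0181% (SD, n = 2 each). Both knockouts lay above both controls, by 0.0952 percentage points on average (two-sided exact permutation p = 0.333, the smallest that 2 against 2 libraries can give). The direction did not hold at a wider distance: within 50 kb the difference was -0.191 percentage points (exact permutation p = 0.667). With H3K27me3 lists of equal length the difference within 10 kb was 0.0370 percentage points (exact permutation p = 0.333). By number of regions, H3K27me3 lay within 10 kb of 3.17% and 7.06% of control-only regions in knockouts 1 and 2. In controls 1 and 2 it was 0.307% and 3.07%, so knockout 1 and control 2 were nearly level. The share of bases was not computed for other classes. Choosing regions by H3K27ac in a genotype also bears on H3K27me3 there, so these p-values are not independent of the choice.

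H3K27me3 seldom lay on a control-only region itself. A peak overlapped 3 and 13 of the 977 in knockouts 1 and 2 and 0 and 1 in controls 1 and 2. In 12 of them (1.23%) the overlap was with a knockout list and no control list, against 0.166% of all 36809 merged regions. None overlapped H3K27me3 in a control list and no knockout list, against 0.0245% of all merged regions. Classes near the rule also stood above shared regions. In knockout 2, H3K27me3 overlapped 1.33% of control-only regions and 0.777% of those in 3 controls and 1 knockout. With no knockout it overlapped 0.595% of regions in 2 controls and 0.460% in 1 control, against 0.0468% of shared ones. The marks rarely share bases in a library, and choosing regions by H3K27ac in a genotype also bears on H3K27me3 there, so no test was made of these counts. At knockout-only regions the overlaps were 0 and 0 in knockouts 1 and 2 and 0 and 2 in controls 1 and 2.

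Both knockout lists and no control list overlapped at 2 of the 977, against 0.019% of all merged regions. They are named here after their values were seen. At chr16:90127139-90128549, H3K27me3 peaks covered 1211 and 1348 of 1411 bp in knockouts 1 and 2 and 0 and 0 bp in controls 1 and 2. Control 2 was not bare around it: within 50 kb, peaks covered 14229 and 23844 bp in knockouts 1 and 2 and 0 and 11403 bp in controls 1 and 2. At chr4:141678954-141680624 they covered 1080 and 1258 of 1671 bp in the knockouts and 0 and 0 bp in the controls. At chr18:12775919-12778307, also picked after the values were seen, all 2389 bp were covered in knockout 2, 248 bp in knockout 1, and 0 and 227 bp in controls 1 and 2.

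Covered length of H3K27me3 was then compared over the whole genome in 10 kb bins with limma. The 977 regions lay in 969 bins, and 22 of these had enough H3K27me3 to be tested. The choice of regions by H3K27ac bears on H3K27me3 there, so p-values at these bins are not independent of the choice. Among the 22, 1 was higher and 0 lower in the knockouts at an adjusted p under 0.05 (4 and 0 at an unadjusted p under 0.05). Over all 21034 bins tested, 0.257% were higher and 0.0428% lower at the adjusted threshold, and 7.36% higher and 3.15% lower at the unadjusted one. A bin had to be covered in at least 2 libraries, and 8 of the 22 had 0 bp in both controls, so they entered only through the knockouts. Control 1, whose list stands apart as said above, had 2654 bp in chr7:24700001-24710000 and 0 bp in every other bin of the 22. At these bins the difference between genotypes therefore rests largely on control 2. The called bin, chr16:90120001-90130000, holds the chromosome 16 region above and is among those 8. It had 4023 and 5238 bp under H3K27me3 peaks in knockouts 1 and 2 and 0 and 0 bp in controls 1 and 2, which gave 4.51 as the log2 change (SE 0.876) and a limma adjusted p of 0.00139. The size of this change was set by the pseudocount: it was 7.74 at 10 bases and 1.79 at 1000 bases. Its limma adjusted p ranged from 1.63e-05 without control 1 to 0.699 with no centring of the libraries. It missed the threshold also at pseudocounts of 10 and 1000 bases (limma adjusted p = 0.576 and 0.100) and when all lists were cut to the same length (0.604). Without control 2, limma called 6 of 17 bins at control-only regions higher, and 5799 of 17679 over the genome. Over all bins tested, the median log2 change was 0.78 with centring and 1.82 with none.

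The second strongest control-only region, chr2:69934325-69936672, had H3K27me3 close by in the knockouts. Within 50 kb of it, H3K27me3 peaks covered 11196 and 21553 bp in knockouts 1 and 2 and 0 and 1146 bp in controls 1 and 2. The nearest peak was 2362 bp away, and none lay on the region itself. The 10 kb bin chr2:69930001-69940000, which holds the region, had 675 and 613 bp in the knockouts and 0 and 0 bp in the controls, so it too entered through the knockouts, and did not pass the test (log2 change 1.85, SE 1.298, limma adjusted p = 0.542). Of the 10 strongest regions, 2 others had H3K27me3 within 50 kb, on chromosomes 9 and 12. The chromosome 12 one had 1244 and 2091 bp in the knockouts and 0 and 2703 bp in the controls. The chromosome 9 one, chr9:15439867-15443871, had 473 and 3119 bp in the knockouts and 0 and 891 bp in the controls. Neither showed the order seen on chromosome 2.

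**Figure D5:**
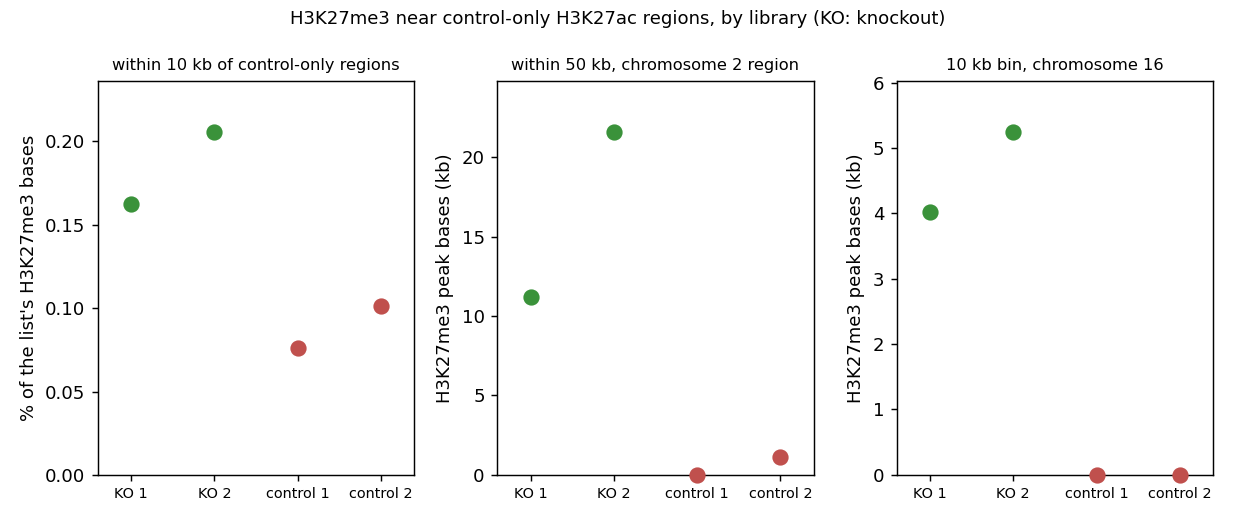
H3K27me3 by library, knockouts (KO) left of controls: share of a list's H3K27me3 bases within 10 kb of control-only H3K27ac regions (left, %), bases within 50 kb of the chromosome 2 region at 69934325 (middle, kb) and bases in the called chromosome 16 bin (right, kb). Both knockout points lie above both control points in all 3 panels, with the control 1 list short at 4.89 Mb.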

How the data were processed

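H3K27ac (6 libraries) and H3K27me3 (4 libraries) were profiled by CUT&Tag, where a transposase brought in by an antibody cuts chromatin at the mark. Per the submitters' processing notes, the tools were Bowtie2 2.2.4, deepTools 3.5.1, MACS2, ChIPseeker 1.30.3 and HOMER 4.11, with build mm39. For settings, background library and duplicate handling, the sources used here give nothing. A deposited list holds the peaks of 1 library. The authors deposited start, end and summit of each peak, a whole-number score of 10 times the −log10 p, the fold enrichment over local background as a ratio, and p and q values as −log10. These are the authors' values within a list. Coordinates are counted from 1. No reads were used.

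Peaks were handled as deposited, on chromosomes 1 to 19 for regions and with no chromosome filter for bins. Percentiles rank −log10 p within a list. Summit height and background were solved from fold, taken as (height + 1)/(background + 1), and the Poisson upper tail. For H3K27me3, log2(covered bases + 100) per 10 kb bin, for bins covered in at least 2 libraries, was centred by the median of bins with H3K27me3 in all libraries. These values went into limma 3.58.1 (R 4.3.3, trended and robust variances) without a block, with p-values adjusted by Benjamini-Hochberg and called under 0.05. The overlap, distance and summit calculations and the limma fit were tested on simulated data. Changes are knockout minus control.

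Named regions are the 10 with the highest mean −log10 p over the control lists and the 5 widest. Named groups are the 3 with the most members, ties broken by summed member width. A further group of 7, tied with the last of these, and a group of 5 on chromosome 11 are named beside them after their values were seen. The members and lists were chosen with earlier results of these data known. The gene tables at hand are of GRCm38.p6, another build, so no region was tied to a gene, the planned gene lists and marker genes were not used, and no sequence was printed.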

Additional observations from a re-analysis of the deposited data

How the results depend on the processing

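As given with the rule, 661 regions were control-only with peaks within 1 kb merged. Without 1 library the count lay between 1057 and 1970. The counts under other settings were 477 with lists of equal length, 638 with −log10 p at least 5 above the lowest and 496 with 50% of the merged region covered. Of the 977, 28.97% stayed with lists of equal length and 29.48% with the stricter p. The median percentile, still counted in the full lists, was 51.1 and 50.45 under these settings, which drop weak peaks by construction. The median distance to a shared region ranged from 7481 to 23306 bp and the median width from 629 to 1233 bp over all 10 alternatives; the cause was not tested. The difference in H3K27me3 share near the regions was between 0.0737 and 0.117 percentage points without 1 library, 0.0228 within 1 kb, 0.0370 with lists of equal length and -0.191 within 50 kb. Bins holding control-only regions and called higher in knockouts numbered 0 at pseudocounts of 10 and of 1000 bases, with no centring, and when lists were cut to 1 length, 1 with no filter, and between 0 and 6 without 1 library; without a knockout the chromosome 16 bin was covered in too few libraries to be tested. The 6 were found without control 2; in these fits the lone library of a genotype is assumed to vary like the others. Called lower were 0 in each of these fits. For H3K27me3, the deviations of knockout 1 and control 1 from their group means had a correlation of 0.00261 over bins. With 2 libraries in each genotype this is a single contrast, and the list of control 1 stands apart in −log10 p. It therefore cannot tell whether libraries of the same number are paired. With the replicate block, 1 bin was higher and 0 lower, and the difference in share was 0.0952 percentage points (exact p = 0.5 over 2 pairs, the smallest possible). H3K27ac regions had no test and so no paired fit, and pairing was not checked there. Peak lists hold no reads, and regions under 11 to 13 fragments at the summit could not be called.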

Other observations

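Chromosome X lay outside the rule. Of its 764 merged H3K27ac regions, 21 had a peak in every control list and in no knockout list, and 5 the opposite.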
